A study of Homo sapiens with 9 samples.

Results

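The Wnt ligands, receptors and modulators of LAN5 cells were examined across a MYCN and a HAND2 knockdown. The genes were chosen by symbol: the WNT, FZD, DKK, SFRP, RSPO, LGR4 to LGR6, AXIN and NKD families, the co-receptors LRP5 and LRP6, the ligases RNF43 and ZNRF3, WIF1, CTNNB1, and the TCF and LEF1 factors. The rule found 39 of the 25084 genes in the table. LAN5 is an established human neuroblastoma line that carries extra copies of MYCN. The cells received a control siRNA (siCTR), the siRNA labelled siMYCN_2 (siMYCN) or the siRNA labelled siHAND2_3 (siHAND2) by nucleofection and were collected 72 h later in regular growth medium. Each group held 3 libraries of total RNA, and each target was lowered with 1 siRNA sequence, so effects of a second sequence against the same target were not analysed here. Nothing in the labels says whether the 3 libraries of a group came from separate cultures, so p-values measure the spread between these libraries, which may be technical.

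Wnt ligands are secreted lipid-modified proteins that bring together a Frizzled receptor (FZD) and the co-receptor LRP5 or LRP6. In the canonical branch this stops the breakdown of β-catenin (CTNNB1) by a complex built on AXIN1 or AXIN2, and β-catenin then works with TCF and LEF factors on DNA. Dickkopf proteins (DKK) and secreted Frizzled-related proteins (SFRP) act outside the cell as inhibitors or modulators, whereas LGR4 and LGR5 bind R-spondins and so restrain RNF43 and ZNRF3, the ligases that remove Frizzled from the membrane. In development Wnt signals take part in forming the neural crest, the tissue from which sympathetic neurons and neuroblastoma arise.

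Values are CPM: the reads of each gene divided by the reads of its library and brought to a common scale. The libraries held 21.1 M to 32.7 M assigned reads, so 1 CPM stood for 21.1 to 32.7 reads and counting alone gave a coefficient of variation of 17.5% to 21.8% there. siHAND2 replicate 3 lay furthest from its fellow replicates: the chi-square of the counts per degree of freedom was 11.4 and 12.4 for its 2 pairs and 3.53 to 7.81 for the other 7 pairs of replicates. MYCN was at 70.0% of its siCTR mean in siMYCN and 49.6% in siHAND2, and HAND2 at 54.2% of its siCTR mean in siHAND2 and 114% in siMYCN, so each siRNA went with less of its target and the siHAND2 libraries also held less MYCN than the siMYCN libraries. All 12 listed noradrenergic neuroblastoma markers passed the filter, with a summed level of 1973 to 2628 CPM over the 9 libraries, whereas the listed immune and endothelial markers summed to at most 0.724 and 1.49 CPM. Of 10 listed fibroblast and stromal markers, 7 passed the filter. Their list summed to 288 to 292 CPM in siCTR, 347 to 349.5 CPM in siMYCN and 621 to 703 CPM in siHAND2, with COL1A1 and POSTN under 1 CPM in every library. Among Schwann cell markers NGFR passed the filter and rose in both knockdowns against siCTR, and SOX10 and ERBB3 were under 1 CPM throughout.

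Genes were tested when at least 3 libraries reached 1 CPM, which 14495 genes and 27 of the 39 Wnt genes did. Levels of different genes were compared per kilobase of the MANE Select transcript, since a longer transcript gives more reads. On that scale CTNNB1 and some receptor and inhibitor genes were highest among the Wnt genes in the control cells, and every ligand gene was low. Other receptor and inhibitor genes were as low as ligand genes, such as FZD1 (0.0959 CPM per kilobase) and SFRP5 (0.0734). CTNNB1 was at 133 CPM per kilobase in siCTR, SFRP1 at 57.0, LGR5 at 29.8, DKK2 at 18.0, LRP6 at 15.3 and LRP5 at 13.9. Among the Frizzled genes FZD2 (10.9) and FZD3 (9.73) were highest, followed by FZD7 (5.91), FZD5 (2.34), FZD6 (2.00) and FZD8 (1.07), while FZD4 (0.514) and FZD9 (0.510) lay close together. TCF7 (1.21), TCF7L1 (0.502) and TCF7L2 (0.454) were the measured DNA-binding partners of β-catenin. No WNT gene was above 0.333 CPM per kilobase in siCTR, the value of WNT5B, and of the 10 WNT genes found only WNT2B and WNT3 passed the filter.

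**Figure D1:**
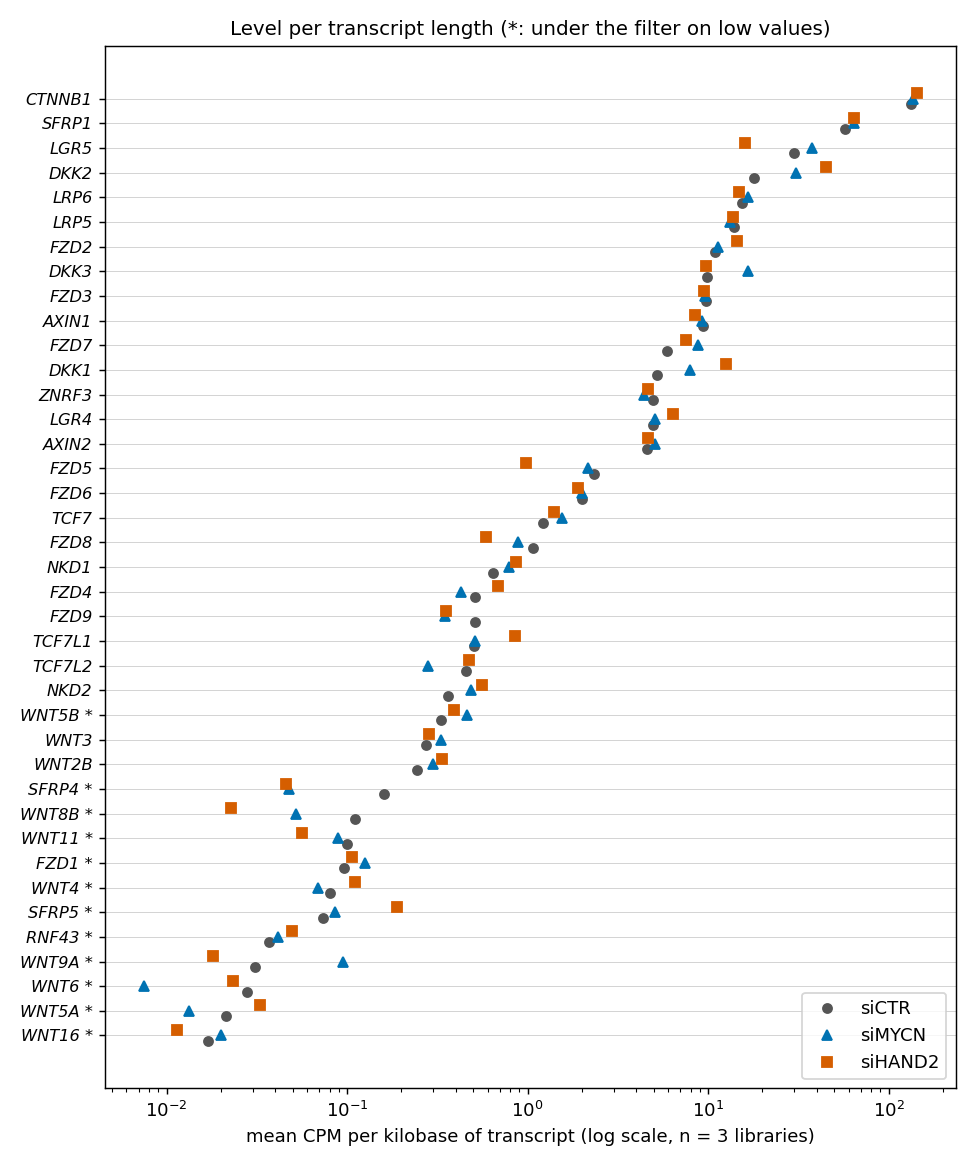
Mean level of the 39 Wnt genes in CPM per kilobase of transcript (log axis) in the 3 groups, 3 libraries each; genes marked with a star were under the filter of 1 CPM in at least 3 libraries. CTNNB1 and SFRP1 stand at the top, all WNT genes stand in the lower part, and LGR5, DKK1, DKK2 and FZD5 show the widest gaps between groups among the genes that passed.

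Each Wnt gene was read from a fit over all genes tested (limma on log2(CPM + 1)), and is called where the Benjamini-Hochberg adjusted p over all 14495 genes is under 0.05. In siMYCN against siCTR 9 of the 27 Wnt genes were called (33.3%), 7 higher and 2 lower, beside 35.9% of all genes (24.5% higher and 11.4% lower), so the share was near the background. In siHAND2 against siCTR 13 of 27 were called (48.1%), 10 higher and 3 lower, beside 29.9% of all genes (18.1% higher and 11.8% lower); after median-ratio rescaling of the libraries the split was 8 higher and 4 lower. The direct comparison of siHAND2 with siMYCN called 13 of 27 (48.1%), 7 higher and 6 lower in siHAND2, beside 26.9% of all genes (11.4% higher and 15.5% lower). Called changes that reached 2-fold (1 on the log2 scale of CPM + 1) were found for 3 of the 27 in siHAND2 (DKK1, DKK2 and FZD5) and for 2 between the knockdowns (LGR5 and FZD5), beside 0.987% and 1.36% of all genes, and for 0 in siMYCN, beside 0.331%. The libraries of the 2 groups did not overlap for 14 of the 27 genes in siMYCN, 15 in siHAND2 and 14 between the knockdowns, beside 49.5%, 42.4% and 38.7% of all genes. The counts against siCTR include FZD9, which passed the filter only through siCTR. Its siMYCN and siHAND2 libraries were all under 1 CPM, so the filter alone kept them apart from siCTR. Without siHAND2 replicate 3 the counts of called Wnt genes were 11, 14 and 13, and in siHAND2 DKK1 was at 1.20, DKK2 at 1.34, FZD5 at -1.22 and LGR5 at -0.96. The size of the log2 fold change, whatever its sign, had a median over the 27 genes of 0.17 in siMYCN, 0.26 in siHAND2 and 0.14 between the knockdowns, beside 0.14, 0.12 and 0.12 over all genes. Over all genes the calls were 68.3% higher in siMYCN and 60.6% higher in siHAND2, and 49.7% and 42.0% after median-ratio rescaling. Both contrasts against siCTR use the same 3 control libraries, so their values are given side by side and only the direct comparison tests whether the knockdowns differ.

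**Figure D2:**
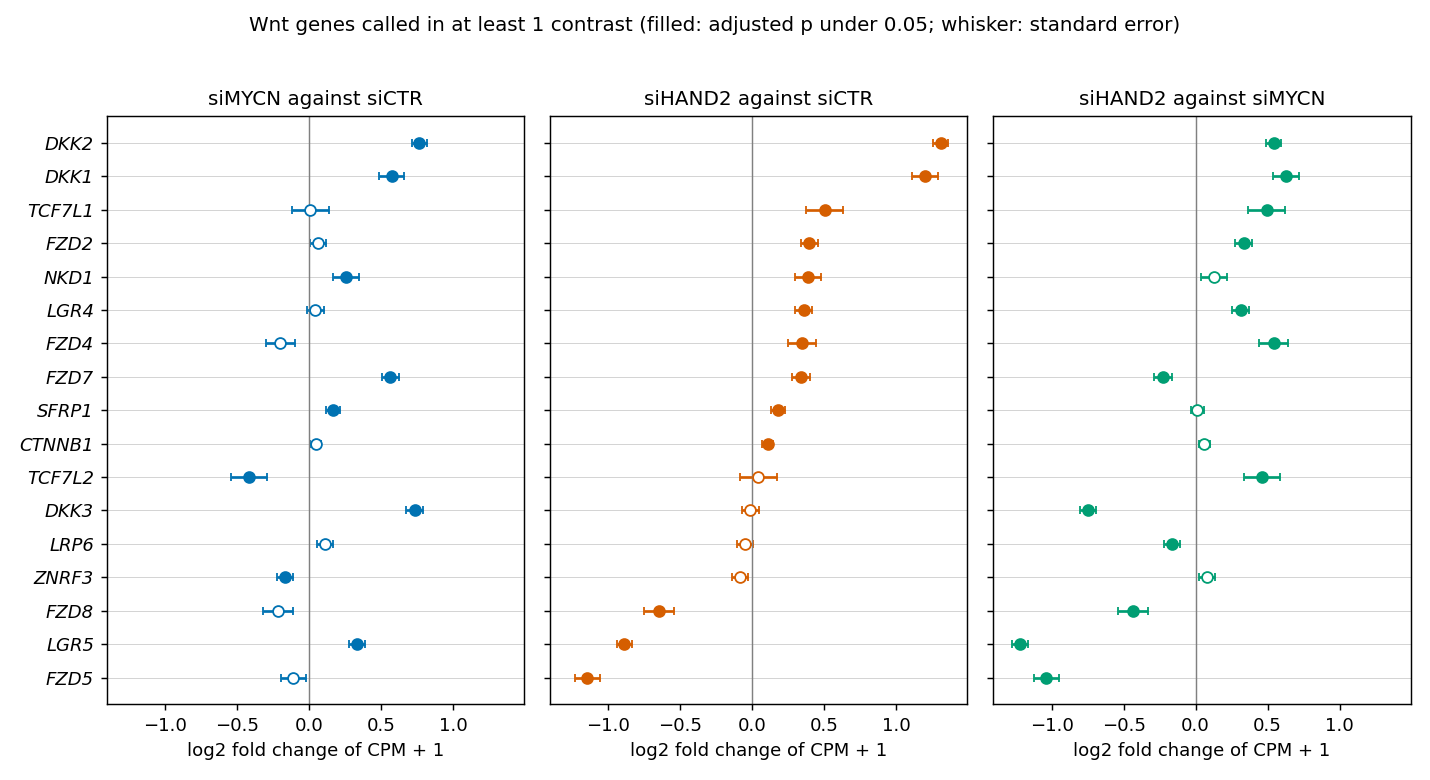
Log2 fold change of CPM + 1 with its standard error for the 17 Wnt genes called in at least 1 of the 3 contrasts, from a fit over 3 libraries a group. Filled points have an adjusted p under 0.05; DKK2 and DKK1 are furthest to the right in siHAND2, FZD5 and LGR5 furthest to the left, and LGR5 lies on opposite sides of 0 in the contrasts against siCTR.

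Each of the 3 measured Dickkopf genes, which encode secreted proteins, rose in siMYCN, and DKK1 and DKK2 were higher still in siHAND2. DKK1, a classical inhibitor that binds LRP5 and LRP6 (chromosome 10, 52314281 to 52318042, GRCh38 positions of the table), measured 9.75, 7.85 and 10.6 CPM in the control libraries (replicates 1 to 3), 13.3, 14.3 and 15.5 after MYCN siRNA and 23.6, 21.9 and 22.8 after HAND2 siRNA. The 3 groups did not overlap, and their order was siCTR, siMYCN, siHAND2. The log2 fold change was 0.57 in siMYCN (standard error 0.09, limma, adjusted p = 0.000134), 1.20 in siHAND2 (adjusted p = 4.59e-08) and 0.63 between siHAND2 and siMYCN (adjusted p = 5.85e-05). In CPM the siHAND2 mean was 2.42-fold and the siMYCN mean 1.53-fold that of siCTR. DKK2, which binds the same co-receptors (chromosome 4, 106921802 to 107283806), gave the same order at a higher level. It measured 68.2, 65.3 and 63.5 CPM in the control libraries, 105.6, 116.0 and 115.7 after MYCN siRNA and 175, 160.9 and 157 after HAND2 siRNA, again with no overlap between groups. Its log2 fold changes were 0.77 in siMYCN (standard error 0.05, limma, adjusted p = 4.53e-08), 1.31 in siHAND2 (adjusted p = 3.06e-11) and 0.54 between the knockdowns (adjusted p = 6.51e-07). Relative to the control mean, siMYCN stood at 171% and siHAND2 at 250.2%. In a bulk sample more RNA per cell and more cells with the RNA cannot be told apart. Of the 7 stromal markers tested, 6 rose and 1 fell in siHAND2 and 6 rose in siMYCN. Over all genes 18.1% were called higher and 11.8% lower in siHAND2, and 24.5% higher in siMYCN. Of the 12 noradrenergic markers 4 rose and 4 fell in siHAND2, and 9 rose in siMYCN. The part of the stromal markers and of NGFR in the Dickkopf, LGR and Frizzled values was not tested.

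DKK3, a more distant relative that is not a classical LRP inhibitor, had a different pattern. It measured 24.6, 26.0 and 23.9 CPM in the control libraries, 41.8, 41.9 and 41.9 after MYCN siRNA and 25.7, 23.0 and 25.1 after HAND2 siRNA. The siMYCN libraries lay above all others, and the siCTR and siHAND2 libraries overlapped. The log2 fold change was 0.73 in siMYCN (standard error 0.06, limma, adjusted p = 1.30e-07), -0.01 in siHAND2 (adjusted p = 0.881) and -0.75 between siHAND2 and siMYCN (adjusted p = 3.85e-08). DKK3 (chromosome 11, 11956207 to 12009769) shares 5681 bases with USP47 on the other strand, and the use of strand in the counting is not given in the sources used here. USP47 rose by 0.18 in siMYCN (limma, adjusted p = 0.0126) and had a value of 0.13 in siHAND2 (adjusted p = 0.0614), and its part in the DKK3 values was not tested.

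Because DKK1 is itself known as a transcriptional target of β-catenin and TCF, the 250 bases before its start are shown, as RefSeq gives them on GRCh38.p14 (chr10:52314031-52314280, plus strand). Capitals mark the TCF/LEF core CTTTGA, searched on both strands (TCAAAG on the other).
DKK1: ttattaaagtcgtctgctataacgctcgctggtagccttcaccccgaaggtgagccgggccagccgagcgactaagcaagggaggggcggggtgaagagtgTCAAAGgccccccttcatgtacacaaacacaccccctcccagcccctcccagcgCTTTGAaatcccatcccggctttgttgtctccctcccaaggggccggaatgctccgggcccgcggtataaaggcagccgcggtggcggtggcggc
The window held 2 matches, at -149 to -144 and at -95 to -90 from the start. Of 35116 promoters of the same length, 11.2% held at least 1 such match and 0.977% held 2 or more. The E-box CANNTG, the general site of helix-loop-helix factors, was searched as well; its form CACGTG is the one that MYC-type factors prefer, and its form CATCTG, which reads as CAGATG on the other strand, has been reported for HAND factors. None of these letters occurred in the DKK1 window, whereas 61.8% of all promoters held CANNTG, 6.34% the MYC-type form and 12.2% the HAND-type form. A match is a description of letters and not a site of binding. Promoters were looked up for the 5 Wnt genes with the smallest p between the knockdowns (LGR5, DKK3, FZD5, DKK2 and DKK1), and the table held DKK1 and FZD5.

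Of the genes with an SFRP symbol only SFRP1 passed the filter, a secreted protein that binds Wnt ligands and Frizzled receptors. FRZB, a secreted Frizzled-related inhibitor outside the symbol rule, also passed and fell in both knockdowns, as given below. SFRP1 measured 263, 259.7 and 241 CPM in the control libraries, 286, 284 and 286 after MYCN siRNA and 302, 273 and 289.8 after HAND2 siRNA. Both knockdown groups lay above the siCTR libraries and overlapped each other. The rises were small, 0.17 in siMYCN (standard error 0.05, limma, adjusted p = 0.0101) and, with HAND2 siRNA, 0.18 (adjusted p = 0.00762), and neither was called after median-ratio rescaling (0.10 and 0.12). The siMYCN call was also lost without siCTR replicate 3 (0.13). The difference between the knockdowns was 0.01 (adjusted p = 0.866).

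LGR5, a receptor for R-spondins and a marker of Wnt-responsive stem cells in the gut, was the Wnt gene with the smallest p between the knockdowns. LGR5 (chromosome 12, 71439798 to 71586310) measured 141, 132 and 136 CPM in the control libraries. After MYCN siRNA it measured 167, 173 and 176 CPM, and after HAND2 siRNA 68.5, 70.9 and 81.0. The groups did not overlap: siMYCN was highest and siHAND2 lowest. LGR5 rose by 0.33 in siMYCN (standard error 0.05, limma, adjusted p = 0.000208) and fell by 0.89 in siHAND2 (adjusted p = 4.20e-09). The difference between the knockdowns was -1.22 (adjusted p = 6.17e-11), a siMYCN mean 2.34-fold that of siHAND2. Its relative LGR4, which serves the same ligands, moved the other way in siHAND2. LGR4 measured 25.5, 25.3 and 27.1 CPM in the control libraries, 26.9, 26.9 and 26.4 after MYCN siRNA and 34.4, 31.2 and 35.0 after HAND2 siRNA. Its siHAND2 libraries lay above the other 6, a rise of 0.36 over siCTR (standard error 0.06, limma, adjusted p = 0.000201) and of 0.31 over siMYCN (adjusted p = 0.000609). In siMYCN LGR4 differed from siCTR by 0.04 (adjusted p = 0.608).

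Of the ligases that LGR receptors restrain, only ZNRF3 was tested, and it showed little change. ZNRF3 measured 35.8, 33.2 and 33.3 CPM in the control libraries, 32.0, 28.9 and 29.9 after MYCN siRNA and 32.0, 31.9 and 32.3 after HAND2 siRNA. It fell by 0.17 in siMYCN (standard error 0.06, limma, adjusted p = 0.0267), a call lost on leaving out siMYCN replicate 2 (-0.13), siMYCN replicate 3 (-0.16) or siCTR replicate 1 (-0.13). In siHAND2 the value was -0.09 (adjusted p = 0.267). RNF43 was under the filter, at 0.0353 to 0.336 CPM, so its change was not tested.

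**Figure D3:**
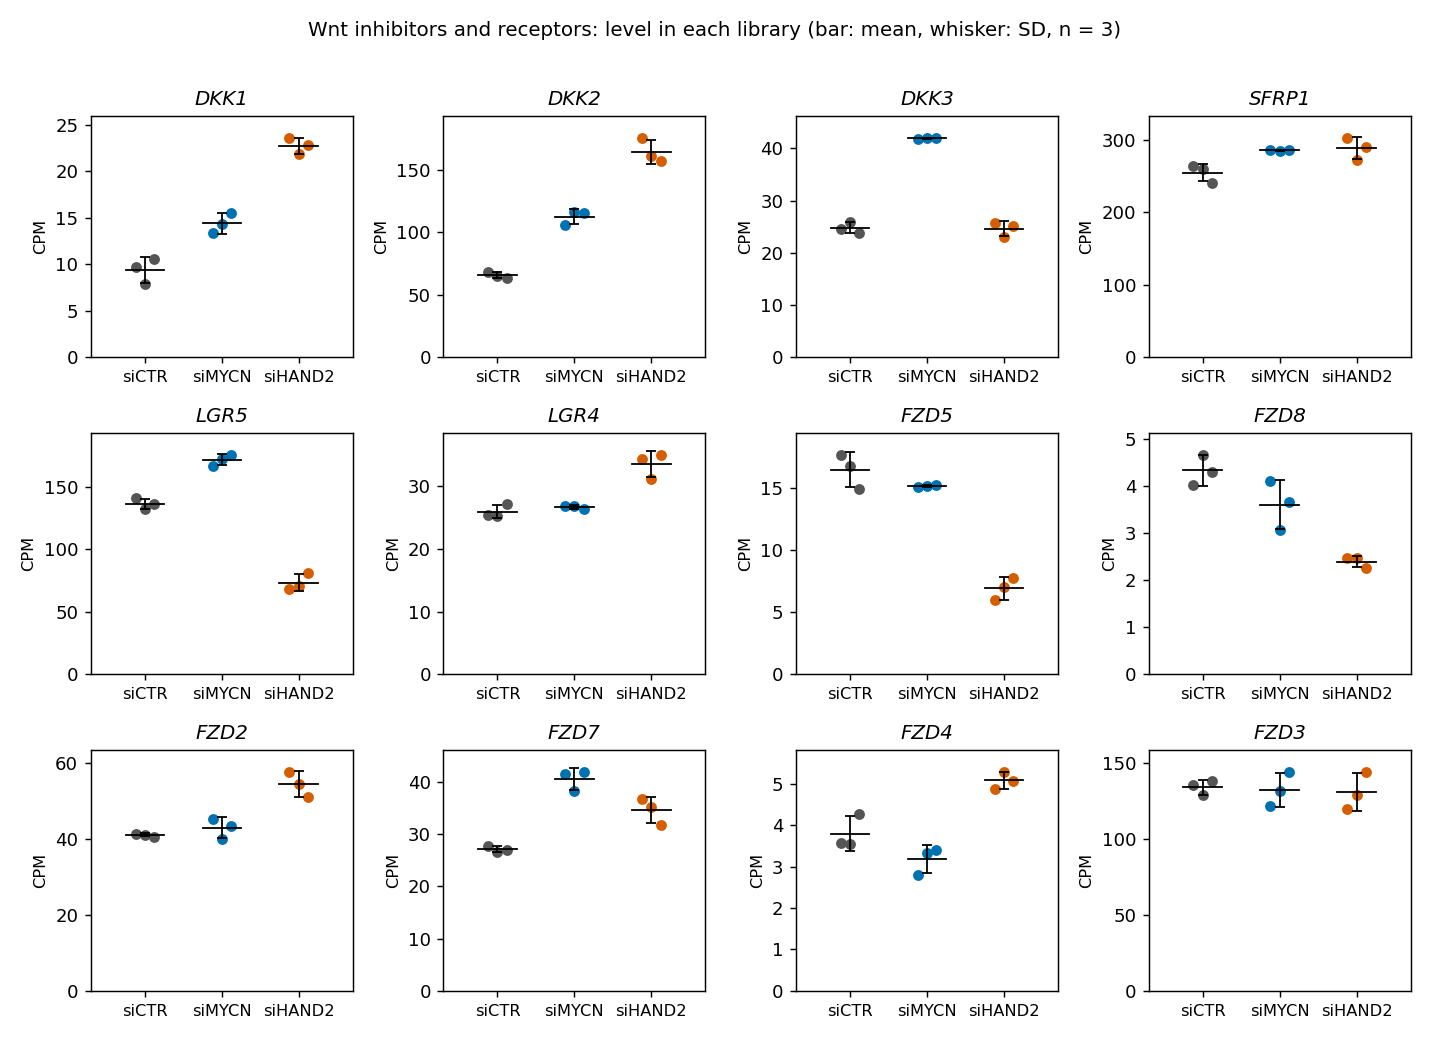
CPM in each library (points) with the mean (bar) and SD (whisker, 3 libraries) for 12 Wnt inhibitors and receptors, each panel with its own axis from 0. DKK1 and DKK2 step up from siCTR to siMYCN to siHAND2, DKK3 is high only in the siMYCN libraries, LGR5 and FZD5 are low in the siHAND2 libraries, and FZD3 overlaps in all groups.

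Of the 8 Frizzled genes tested, 5 were called in siHAND2, 3 higher (FZD2, FZD4 and FZD7) and 2 lower (FZD5 and FZD8), and FZD7 alone was called in siMYCN, where it rose, beside 29.9% of all genes called in siHAND2 (18.1% higher and 11.8% lower) and 35.9% in siMYCN. Under both other scalings the siHAND2 split stayed 3 and 2, and quantile normalization added a lower call of FZD4 in siMYCN (-0.27). FZD5, a receptor often coupled to the canonical branch (chromosome 2, 207762598 to 207769906), measured 17.7, 16.8 and 14.9 CPM in the control libraries, 15.1, 15.1 and 15.2 after MYCN siRNA and 5.95, 7.01 and 7.76 after HAND2 siRNA. Every siHAND2 library was below the other 6, while siCTR and siMYCN overlapped. FZD5 fell by 1.15 with HAND2 siRNA (standard error 0.09, limma, adjusted p = 4.84e-08) and differed by -1.04 from siMYCN (adjusted p = 1.21e-07). The siHAND2 mean was 41.9% of that of siCTR. In siMYCN the value was -0.11 (adjusted p = 0.347). FZD8, the closest relative of FZD5, measured 4.03, 4.67 and 4.31 CPM in the control libraries, 4.11, 3.06 and 3.66 after MYCN siRNA and 2.47, 2.47 and 2.26 after HAND2 siRNA. Its siHAND2 libraries were also below the other 6, and it fell by 0.65 (standard error 0.11, limma, adjusted p = 0.000211); the mean was 55.3% of the control mean. FZD8 differed by -0.43 between siHAND2 and siMYCN (adjusted p = 0.00583) and by -0.22 between siMYCN and siCTR (adjusted p = 0.125).

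FZD5 was the other gene of those 5 with an entry, and the 250 bases before its start are shown beside those of DKK1 (RefSeq, GRCh38.p14, chr2:207769907-207770156, minus strand). Capitals mark the E-box CANNTG.
FZD5: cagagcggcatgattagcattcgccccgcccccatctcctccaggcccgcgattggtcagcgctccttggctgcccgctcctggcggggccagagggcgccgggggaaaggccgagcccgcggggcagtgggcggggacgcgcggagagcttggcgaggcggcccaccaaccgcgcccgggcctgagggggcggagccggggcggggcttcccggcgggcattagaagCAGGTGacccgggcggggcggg
The window held 1 E-box, CAGGTG at -22 to -17, as 61.8% of promoters hold at least 1, and neither the MYC-type form, the HAND-type form nor the TCF/LEF core on either strand. Its GC content was 76.8%, beside 62.8% in the DKK1 window.

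FZD7, FZD2 and FZD4 were higher in siHAND2. FZD7, a receptor expressed in many progenitor cells, measured 27.8, 26.7 and 26.9 CPM in the control libraries, 41.5, 38.2 and 41.9 after MYCN siRNA and 36.7, 35.2 and 31.8 after HAND2 siRNA. The 3 groups did not overlap, with siMYCN highest. The rises were 0.56 in siMYCN (standard error 0.06, limma, adjusted p = 3.17e-06) and, with HAND2 siRNA, 0.34 (adjusted p = 0.000488), and siHAND2 differed from siMYCN by -0.23 (adjusted p = 0.0108). FZD2, the closest relative of FZD7 in this set along with FZD1, measured 41.4, 41.1 and 40.6 CPM in the control libraries, 45.3, 40.1 and 43.5 after MYCN siRNA and 57.7, 54.5 and 51.0 after HAND2 siRNA. Only its siHAND2 libraries stood apart, with a rise of 0.40 over siCTR (standard error 0.06, limma, adjusted p = 6.10e-05) and of 0.33 over siMYCN (adjusted p = 0.000313); in siMYCN the value was 0.06 (adjusted p = 0.421). FZD4, the receptor that also answers the ligand norrin, measured 3.58, 3.54 and 4.27 CPM in the control libraries, 2.79, 3.34 and 3.40 after MYCN siRNA and 4.88, 5.29 and 5.07 after HAND2 siRNA. The siMYCN libraries were below and the siHAND2 libraries above all siCTR libraries. FZD4 rose by 0.35 in siHAND2 (standard error 0.10, limma, adjusted p = 0.0157), a call lost without siCTR replicate 1 (0.31), siCTR replicate 2 (0.31) or siHAND2 replicate 2 (0.32). Its difference of 0.54 between the knockdowns (adjusted p = 0.000613) was called in all 18 alternatives that could be fitted, and its siMYCN value was -0.20 (adjusted p = 0.136).

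The remaining Frizzled genes were not called in any contrast of the main fit. Without the intensity trend the Frizzled split was 1 higher and 1 lower in siMYCN and 3 higher and 3 lower in siHAND2. The added lower call in each fell on a gene of this remainder. Of these genes FZD9 had the values furthest below 0, -0.27 in siMYCN and -0.26 in siHAND2. The filter alone kept its knockdown libraries below siCTR, so the added lower calls are not evidence of a fall. FZD3, which takes part in axon guidance and planar polarity, had means of 134 ± 4.79, 132 ± 11.3 and 131 ± 12.5 CPM in siCTR, siMYCN and siHAND2 (SD, n = 3 libraries). FZD6, its partner in planar polarity, had means of 7.47 ± 0.425, 7.47 ± 0.868 and 7.09 ± 0.456 CPM. FZD9 passed the filter only through its siCTR libraries, with means of 1.19 ± 0.244, 0.818 ± 0.135 and 0.827 ± 0.0447 CPM. FZD1 stayed under the filter, at 0.496 to 0.920 CPM.

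The co-receptors were nearly level across the groups. LRP6 measured 155, 156 and 160.7 CPM in the control libraries, 164, 168 and 178 after MYCN siRNA and 144, 145 and 167 after HAND2 siRNA. Replicate 3 of siHAND2 lay inside the siMYCN range and the other two siHAND2 libraries below siCTR. The difference of -0.16 between siHAND2 and siMYCN was called (standard error 0.05, limma, adjusted p = 0.0348), and the values against siCTR were 0.11 in siMYCN (adjusted p = 0.124) and -0.05 in siHAND2 (adjusted p = 0.506). That call was lost under quantile normalization (-0.14) and without siMYCN replicate 2 (-0.17), siMYCN replicate 3 (-0.13), siHAND2 replicate 1 (-0.12) or siHAND2 replicate 2 (-0.13), and without siHAND2 replicate 3 LRP6 was called in siMYCN (0.11) and in siHAND2 (-0.12) against siCTR. The siMYCN value was also called with a replicate block (adjusted p = 0.0355) and with 2 groups only (adjusted p = 0.0375). LRP5 was not called, with means of 71.8 ± 1.34, 68.5 ± 3.69 and 70.8 ± 5.62 CPM (SD, n = 3 libraries).

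β-catenin transcript was abundant and moved little. CTNNB1 measured 490.4, 485 and 487 CPM in the control libraries, 504, 496 and 509 after MYCN siRNA and 534, 512 and 529 after HAND2 siRNA. The 3 groups did not overlap, yet the rise in siHAND2 was 0.11 (standard error 0.04, limma, adjusted p = 0.0386), a 1.08-fold change. That call was lost after median-ratio rescaling (0.05) and without siCTR replicate 1 (0.11), siCTR replicate 2 (0.10), siCTR replicate 3 (0.11), siMYCN replicate 1 (0.11), siHAND2 replicate 1 (0.09) or siHAND2 replicate 3 (0.10). In siMYCN the value was 0.04 (adjusted p = 0.371), called only under quantile normalization (0.10, adjusted p = 0.0148), and between the knockdowns 0.06 (adjusted p = 0.237). The level of CTNNB1 transcript is not the level of active β-catenin, which is set by protein breakdown.

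Among the DNA-binding partners of β-catenin, TCF7L1 rose in siHAND2 and TCF7L2 fell in siMYCN. TCF7L1, usually a repressor, measured 1.53, 1.50 and 1.47 CPM in the control libraries, 1.77, 1.69 and 1.13 after MYCN siRNA and 2.30, 3.07 and 2.30 after HAND2 siRNA. Its siHAND2 libraries lay above the other 6, a rise of 0.50 over siCTR (standard error 0.13, limma, adjusted p = 0.00752) and of 0.49 over siMYCN (adjusted p = 0.00907). The second of these calls was lost without siMYCN replicate 3 (0.38) or siHAND2 replicate 2 (0.39), and the siMYCN value was 0.01 (adjusted p = 0.969). TCF7L2, a main effector in many tissues, measured 2.05, 1.74 and 1.76 CPM in the control libraries, 1.05, 1.45 and 0.925 after MYCN siRNA and 2.20, 1.99 and 1.63 after HAND2 siRNA. Its siMYCN libraries lay below the other 6, where the value fell by 0.42 (standard error 0.13, limma, adjusted p = 0.0170) and the mean was 61.7% of the control mean, and siHAND2 exceeded siMYCN by 0.46 (adjusted p = 0.0126). The fall was no longer called without siCTR replicate 1 (-0.37), siMYCN replicate 1 (-0.39) or siMYCN replicate 3 (-0.35), and the difference between the knockdowns without siMYCN replicate 3 (0.39). In siHAND2 TCF7L2 differed from siCTR by 0.04 (adjusted p = 0.833). TCF7 was not called, with means of 3.98 ± 0.159, 5.11 ± 0.463 and 4.59 ± 0.845 CPM (SD, n = 3 libraries). Its siMYCN libraries lay above siCTR, with a value of 0.29 just short of the threshold (limma, adjusted p = 0.0519). TCF7 overlaps SKP1 on the other strand, which had a mean of 247 CPM over the 9 libraries. Both called factors are near 2 CPM, where counting error is large relative to the level and the added 1 CPM understates a fold change.

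The inhibitors inside the cell include genes that β-catenin itself is known to switch on, of which AXIN2 is the usual reporter and NKD1 another. NKD1, which binds Dishevelled, measured 10.5, 10.6 and 12.01 CPM in the control libraries, 12.8, 11.96 and 15.5 after MYCN siRNA and 15.4, 14.8 and 13.9 after HAND2 siRNA. The siHAND2 libraries lay above siCTR, while siMYCN overlapped with both. NKD1 rose by 0.39 in siHAND2 (standard error 0.09, limma, adjusted p = 0.00350) and by 0.26 in siMYCN (adjusted p = 0.0323), and the knockdowns differed by 0.13 (adjusted p = 0.307). The siMYCN call was lost under both other scalings (0.20 and 0.18) and on leaving out siMYCN replicate 3 (0.16), siCTR replicate 1 (0.23) or siCTR replicate 2 (0.23). AXIN2 was not called in any contrast, with means of 19.4 ± 1.52, 21.6 ± 1.11 and 19.7 ± 0.266 CPM (SD, n = 3 libraries), and AXIN1 had means of 34.6 ± 0.17, 34.5 ± 1.27 and 31.6 ± 3.14 CPM. NKD2 stood near 1 CPM, with means of 0.789 ± 0.0748, 1.07 ± 0.0674 and 1.22 ± 0.412. The reported feedback genes of the pathway had unlike values in siHAND2: DKK1 and NKD1 rose, LGR5 fell, and AXIN2 and ZNRF3 were not called.

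Wnt ligand transcripts were few. WNT2B measured 2.45, 2.80 and 2.95 CPM in the control libraries, 2.78, 3.86 and 3.39 after MYCN siRNA and 2.65, 3.82 and 4.76 after HAND2 siRNA, and the groups overlapped. It overlaps ST7L on the other strand, which had a mean of 17.2 CPM. WNT3 had means of 0.897 ± 0.261, 1.09 ± 0.397 and 0.935 ± 0.198 CPM (SD, n = 3 libraries). Neither was called in any contrast. The 12 Wnt genes under the filter were WNT4, WNT5A, WNT5B, WNT6, WNT8B, WNT9A, WNT11, WNT16, FZD1, RNF43, SFRP4 and SFRP5. Their highest value in any library went from 0.120 CPM (WNT6) to 1.15 CPM (WNT5B), where 1 CPM stood for 21.1 to 32.7 reads. They were left out of the test above.

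Other genes of the pathway, listed by role, gave the context. Of 67 that passed the filter, 38 were called in siMYCN, 35 higher and 3 lower, and 45 in siHAND2, 34 higher and 11 lower, against the backgrounds of 35.9% and 29.9% given above. The count in siMYCN was 22 (19 higher and 3 lower) after median-ratio rescaling, and the siHAND2 split was then 23 higher and 12 lower. The direct comparison called 22 of 67 (32.8%), 8 higher and 14 lower in siHAND2, near the 26.9% of all genes (11.4% higher and 15.5% lower). The median log2 fold change of the 67 was 0.17 in siMYCN and 0.14 in siHAND2, beside 0.06 and 0.04 over all genes.

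The calls among nuclear cofactors of β-catenin were all higher: 11 of 12 rose in siHAND2 and 7 of 12 in siMYCN, beside 18.1% and 24.5% of all genes called higher. The siHAND2 count was 7 after median-ratio rescaling, 6 without siCTR replicate 2 and 7 without siHAND2 replicate 2, and the siMYCN count was 4 after median-ratio rescaling. BCL9L, an adaptor that links β-catenin to Pygopus proteins, went from 5.40 ± 0.189 CPM in siCTR to 9.88 ± 0.889 in siHAND2 (SD, n = 3 libraries), a log2 fold change of 0.76 (limma, adjusted p = 6.16e-06). The corepressor gene TLE4 rose by 0.26 in siHAND2, and CTNNBIP1, an inhibitor that keeps β-catenin from TCF factors, rose by 0.43 and the coactivator gene CREBBP by 0.27 in siMYCN. The list thus holds coactivators and corepressors alike.

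In the destruction complex and its relay 10 of 21 genes were called in siMYCN, 9 higher and 1 lower. In siHAND2 9 of 21 were called, 7 higher and 2 lower. These are 47.6% and 42.9% of the list, beside 35.9% and 29.9% of all genes. After median-ratio rescaling the splits were 6 higher and 1 lower in siMYCN and 3 higher and 3 lower in siHAND2. DACT1 and DACT3, which bind Dishevelled, rose by 0.68 and 0.58 in siMYCN, and DACT3 rose by 0.47 in siHAND2. AMER1, a partner of APC and an inhibitor of the pathway, fell by 0.46 in siHAND2, from 73.3 ± 2.10 to 53.0 ± 2.23 CPM (limma, adjusted p = 3.12e-06). In the secretion machinery WLS, the carrier of Wnt ligands, fell by 0.23 in siMYCN, and PORCN, the enzyme that attaches their lipid, fell by 0.25 in siHAND2, a call lost without siCTR replicate 1 (-0.24), siCTR replicate 3 (-0.24) or siHAND2 replicate 2 (-0.21).

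Among 11 genes of the non-canonical and planar polarity branch, 8 were called in siHAND2 (6 higher and 2 lower) and 6 in siMYCN (all higher), beside 29.9% and 35.9% of all genes. The siMYCN count fell to 1 after median-ratio rescaling, 2 after quantile normalization and 3 without siCTR replicate 2 or without siMYCN replicate 3. The siHAND2 split was 4 higher and 2 lower after median-ratio rescaling. PRICKLE1, a planar polarity protein, had the largest value: it measured 59.9, 57.2 and 57.7 CPM in the control libraries, 58.6, 56.2 and 59.7 after MYCN siRNA and 125, 119 and 122 after HAND2 siRNA. Only the siHAND2 libraries stood apart, a rise of 1.05. The receptor gene ROR2 rose by 0.29 in siHAND2, and VANGL2 and CELSR2 rose by 0.22 and 0.20 in siMYCN, the last not after median-ratio rescaling (0.14).

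Of 8 other extracellular modulators, 6 were called in siHAND2 (2 higher and 4 lower) and 3 in siMYCN (2 higher and 1 lower); the siHAND2 count was 3 without siCTR replicate 2 or without siHAND2 replicate 1. The siMYCN count, 37.5% of the list, was near the 35.9% of all genes, and the siHAND2 count was 75.0%, beside 29.9%. Under both other scalings the siHAND2 split was 1 higher and 4 lower and the siMYCN split 1 and 1. FRZB, a secreted Frizzled-related inhibitor, measured 25.4, 28.9 and 23.0 CPM in the control libraries, 16.9, 19.7 and 19.4 after MYCN siRNA and 12.8, 11.3 and 14.3 after HAND2 siRNA. Its 3 groups did not overlap and ran in the opposite order to DKK1 and DKK2. FRZB fell by 0.44 in siMYCN (limma, adjusted p = 0.00133) and, with HAND2 siRNA, by 0.96 (adjusted p = 6.92e-07). KREMEN1, a receptor with which Dickkopf proteins remove LRP6 from the membrane, rose by 0.39 in siMYCN, and ADGRA2, a co-receptor for certain Wnt ligands, rose by 0.61 in siHAND2.

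Of 14 genes reported as Wnt targets in other tissues, 11 were called in siMYCN, all higher, and 11 in siHAND2, 8 higher and 3 lower, beside 35.9% and 29.9% of all genes. After median-ratio rescaling the siMYCN count was 7, all higher. DUSP6 and TNFRSF19 had the smallest p in siMYCN, with rises of 0.88 and 1.23, and CCND1, a G1 cyclin, and JUN had the smallest p in siHAND2, with rises of 0.49 and 0.56. Many of these genes answer to other pathways too (DUSP6 to ERK signalling, for example), so the list is not a measure of Wnt activity.

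**Figure D4:**
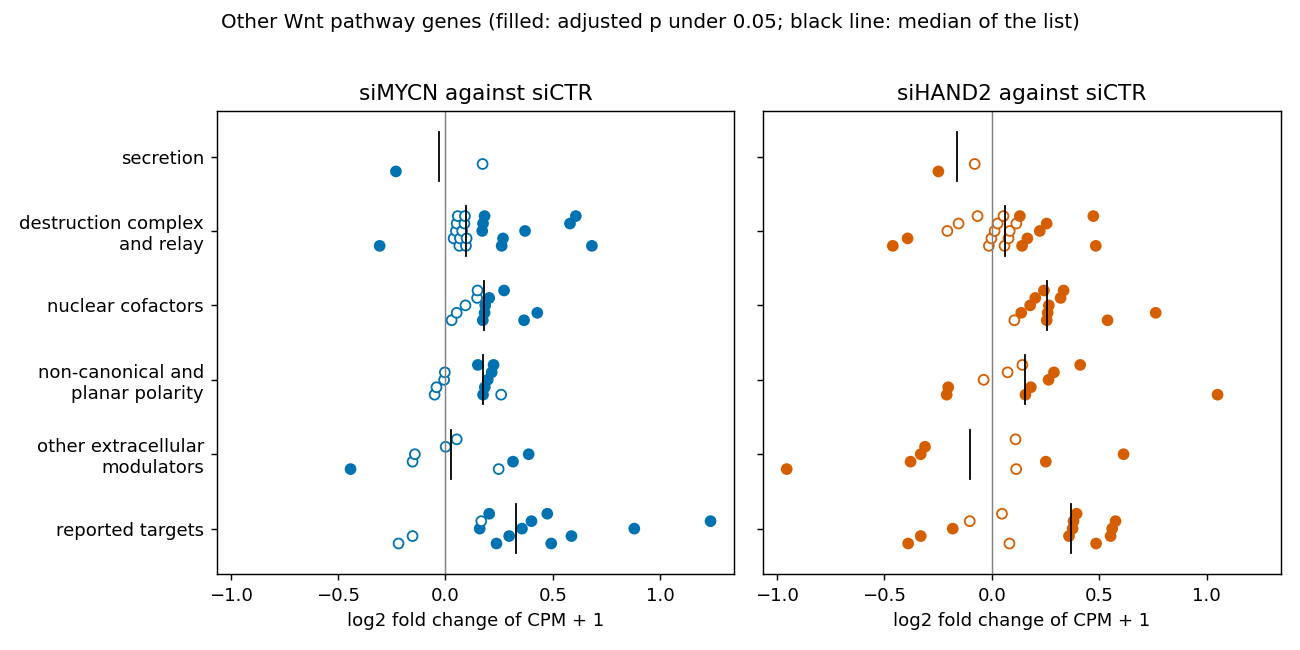
Log2 fold change of CPM + 1 for 67 other Wnt pathway genes by role, in siMYCN and siHAND2 against siCTR (3 libraries a group); NOTUM stands in 2 roles. Filled points have an adjusted p under 0.05 and the black line is the median of the role, which is above 0 in both knockdowns for 4 roles (destruction complex and relay, nuclear cofactors, non-canonical and planar polarity, and reported targets), as is the median over all genes (0.06 and 0.04).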

How the data were processed

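Total RNA of 9 LAN5 libraries (3 each of siCTR, siMYCN and siHAND2, 72 h) was sequenced. The authors deposited 1 table of CPM values; the columns have nearly equal sums and every value includes 0.0001. Reads were aligned with STAR 2.5.1, and Partek was used, per the submitters' processing notes, which name hg19 and GRCh37; gene starts in the table lay within 5000 bp of GRCh38 starts for 91.4% of matched symbols and of GRCh37 starts for 5.62%, so positions are given as GRCh38. Counting tool, strand use and annotation are not given in the sources used here.

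Read depth was taken from the smallest CPM step; 79.6% to 81.0% of low values (up to 20 steps) were whole reads within 0.02 of a step, too few for a count model. Genes that reached 1 CPM in 3 or more libraries were tested on log2(CPM + 1) with limma 3.58.1 in R 4.3.3 (1 mean per group, all 9 libraries, intensity trend, 10.1 prior degrees of freedom; two-sided, Benjamini-Hochberg over 14495 genes in each of 3 contrasts, threshold 0.05). The fitting code was run on simulated counts of independent libraries, which does not test the model for the spread between these libraries. Transcript lengths came from GENCODE MANE Select tags, found for 39 of 39 genes, and promoters from RefSeq, found for 26 of 39. Genes, lists and tests were chosen with earlier results of these data known. Wnt genes called in any contrast are given by library, the others by means or range; of each list of other pathway genes, up to 2 called genes with the smallest p per contrast against siCTR are named. Alternatives were pseudocounts of 0.1 and 5, no filter, a filter of 5 CPM, 2 other scalings, 2 groups only, no trend, a replicate block, precision weights and leaving out each library.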

Additional observations from a re-analysis of the deposited data

How the results depend on the processing

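The 17 Wnt genes called in at least 1 contrast gave 35 called values. Of these, 25 kept direction and call in every one of the 19 alternatives that could be fitted (18 for FZD4, FZD8, TCF7L1 and TCF7L2, which a filter of 5 CPM removed), 10 lost the call in at least 1, and none changed sign; the 10 belonged to CTNNB1, FZD4, LRP6, NKD1, SFRP1, TCF7L1, TCF7L2 and ZNRF3. Testing with no filter ended the calls of CTNNB1 and FZD4 in siHAND2, NKD1 in siMYCN and LRP6 between the knockdowns; without the intensity trend those of CTNNB1, NKD1 and LRP6 were lost, and with 2 groups only those of CTNNB1 and LRP6. With 1 library left out, the number of called Wnt genes went from 6 to 11 in siMYCN, 11 to 14 in siHAND2 and 10 to 13 between the knockdowns, and that of the other pathway genes from 29 to 42, 31 to 45 and 20 to 24. Median-ratio rescaling gave 22 other pathway genes in siMYCN in place of 38. In siHAND2 it gave 23 higher and 12 lower in place of 34 and 11.

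Values that were not called and changed sign lay near 0. Under median-ratio rescaling these were CTNNB1 (-0.017), LGR4 (-0.017) and TCF7L1 (-0.028) in siMYCN. Under quantile normalization they were LGR4 (-0.011) and TCF7L1 (-0.052) in siMYCN and TCF7L2 (-0.042) in siHAND2, and with precision weights TCF7L1 (-0.0029) in siMYCN. With 1 library left out, DKK3 in siHAND2 went from -0.044 to 0.032, SFRP1 between the knockdowns from -0.022 to 0.052, TCF7L1 in siMYCN from -0.063 to 0.13 and TCF7L2 in siHAND2 from -0.021 to 0.12. The causes were not tested.

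The labels do not say whether libraries with the same replicate number share anything beyond that number. Their residuals were related in part. In 6 of 9 same-number pairs the correlation was above 0.1 (range -0.04 to 0.31). Of the 9 libraries, 6 correlated best with their own number in both other groups. The main fit leaves replicate number out, and what such pairs share was not tested. With the replicate block, 11, 14 and 13 Wnt genes were called in siMYCN, siHAND2 and between the knockdowns, and 42, 46 and 27 other pathway genes.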

Other observations

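Some Wnt genes under the filter had libraries that did not overlap between groups. Lack of overlap was common: it held for 49.5% of all genes tested in siMYCN, 42.4% in siHAND2 and 38.7% between the knockdowns. No such share was taken over genes under the filter. WNT9A, SFRP4 and WNT8B are given, chosen after their values were seen and having an adjusted p under 0.05, so that p is part of the choice. FZD1, WNT5B, WNT11, SFRP5 and WNT5A were also apart in a contrast. Their limma adjusted p there went from 0.111 (SFRP5) to 0.337 (WNT11). The adjusted p given with them is that of limma with no filter on low values. WNT9A, a ligand, measured 0.0612, 0.0750 and 0.237 CPM in the control libraries, 0.443, 0.422 and 0.274 after MYCN siRNA and 0.0659, 0.0798 and 0.0710 after HAND2 siRNA, where 1 read is worth 0.0306 to 0.0475 CPM. SFRP4, a secreted inhibitor, measured 0.581, 0.412 and 0.380 CPM in the control libraries, 0.0404, 0.269 and 0.103 after MYCN siRNA and 0.132, 0.159 and 0.106 after HAND2 siRNA. SFRP4 overlaps EPDR1 on the other strand, which had a mean of 13.1 CPM. WNT9A had an adjusted p of 0.00987 in siMYCN and 0.00306 between the knockdowns, and SFRP4 of 0.00527 in siMYCN and 0.00608 in siHAND2. WNT8B (adjusted p = 0.0302) was below siCTR in each siHAND2 library, at 0.184, 0.337 and 0.190 CPM in siCTR and 0.0659, 0.0798 and 0.0001 (the constant alone) in siHAND2.

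The balance of the R-spondin receptors also differed between groups. Per kilobase, LGR5 stood to LGR4 as 6.34, 5.99 and 5.76 to 1 in the control libraries, 7.11, 7.36 and 7.62 to 1 after MYCN siRNA and 2.28, 2.60 and 2.65 to 1 after HAND2 siRNA. The group means were 6.03 ± 0.293, 7.36 ± 0.258 and 2.51 ± 0.199 (SD, n = 3 libraries), with no overlap between groups. This ratio was formed after the values of both genes were seen and was not tested.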
